A study of Mus musculus with 10 samples.

Results

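Ptf1a, Bhlha15, Rbpjl, Nr5a2 and Gata4 are transcription factors that define the acinar cell, the exocrine cell of the pancreas that makes and secretes digestive enzymes. They were chosen by name, and all 5 were found among the 12160 genes of the deposited expression table. The table covers 10 Smart-Seq2 libraries, 5 from tuft cells and 5 from non-tuft epithelium, all sorted from the pancreas of wild-type male mice with pancreatitis. Both populations were sorted from the same 5 mice, with 100 tuft cells of an individual mouse per tuft library and a like number of non-tuft cells, so the groups are not independent, and the sources do not say whether equal replicate numbers mark 1 mouse. Tuft cells are chemosensory epithelial cells that are not found in the healthy mouse pancreas and that arise when acinar cells are injured. The question asked of the factors was how much RNA of the acinar program is found in tuft cells compared with the non-tuft epithelium. RNA levels do not show whether a gene is still being transcribed.

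Both groups came from mice treated with 4 cycles of 250 μg/kg caerulein, an analog of cholecystokinin that overstimulates acinar cells, with 0 to 2 days of recovery. The strain is CD1 in the protocol of the sample records and Mixed in their strain field. Tuft cells were gated as Cd45-neg; EpCAM+; Siglec f+ and non-tuft epithelial cells as Cd45-neg; EpCAM+; Siglec f-neg, so the non-tuft group was not a pure acinar population. No library from an uninjured pancreas was analysed here. Values are log2(RPKM + 1), where RPKM is a read density corrected for transcript length and sequencing output, and the log2 values were quantile normalized. A value of 0 is the lowest that most libraries hold, and in non-tuft library 2 the lowest value is 0.17. Gapdh, which every cell uses, was itself at the lowest value in 5 libraries, so a gene at 0 is described only as listed at 0. The depth of the libraries is not known from these values.

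Acinar identity rests on a small set of factors that act together on the same genes. Ptf1a is a basic helix-loop-helix (bHLH) protein that binds DNA in the PTF1 complex with a common bHLH partner and either Rbpj or its pancreatic relative Rbpjl, and PTF1 activates the genes of the digestive enzymes as well as Rbpjl and Ptf1a themselves. Bhlha15, better known as Mist1, is a bHLH factor of secretory cells that sets up the apical granule machinery. Nr5a2 (LRH-1) is a nuclear receptor that works with PTF1 at enzyme genes, and Gata4 is a zinc finger factor of the early pancreas that is retained in acinar cells and is also made by other epithelia of the gut tube.

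On mm9, the build of the table, Ptf1a lies on chromosome 2 from 19367290 to 19369128, Rbpjl on chromosome 2 from 164228641 to 164240948, Bhlha15 on chromosome 5 from 144951155 to 144955310, Nr5a2 on chromosome 1 from 138740161 to 138857004 and Gata4 on chromosome 14 from 63817759 to 63890529. RefSeq promoter sequence was matched for 4 of the factors and none was matched for Gata4. The 250 bases before the annotated start are shown for the 3 factors whose values did not overlap between the groups, and they were searched for motifs of the kinds of factor described here. The sequences are on GRCm38.p6, all on the plus strand, written 5′ to 3′, and capitals mark an E-box (CANNTG, the motif of bHLH factors), a GATA motif (GATAA), or an Nr5a2 half-site (AAGGTCA or AAGGCCA), each searched on both strands.
Rbpjl, chr2:164402944-164403193: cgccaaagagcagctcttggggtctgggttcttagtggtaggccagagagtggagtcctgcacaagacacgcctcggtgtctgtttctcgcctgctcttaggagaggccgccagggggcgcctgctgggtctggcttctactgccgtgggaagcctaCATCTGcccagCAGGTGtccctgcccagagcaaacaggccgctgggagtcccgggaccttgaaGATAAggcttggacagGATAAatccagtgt
Bhlha15, chr5:144190036-144190285: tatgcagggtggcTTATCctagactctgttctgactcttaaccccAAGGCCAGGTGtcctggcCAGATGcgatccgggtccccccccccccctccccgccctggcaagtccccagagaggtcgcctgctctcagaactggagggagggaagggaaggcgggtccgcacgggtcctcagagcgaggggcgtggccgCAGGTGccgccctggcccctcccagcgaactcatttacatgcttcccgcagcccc
Ptf1a, chr2:19445413-19445662: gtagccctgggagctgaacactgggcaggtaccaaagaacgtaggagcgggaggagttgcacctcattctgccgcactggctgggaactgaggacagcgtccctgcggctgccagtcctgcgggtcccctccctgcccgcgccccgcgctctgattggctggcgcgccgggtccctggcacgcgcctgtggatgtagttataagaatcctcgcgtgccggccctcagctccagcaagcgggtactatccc

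The Rbpjl window held 2 E-boxes, 93 to 88 and 82 to 77 bases before the start, and 2 GATA motifs closer to the start. The Bhlha15 window held 3 E-boxes, 1 GATA motif and 1 Nr5a2 half-site, and the half-site overlaps the first E-box. None of these letters occurred in the Ptf1a window. In Nr5a2, which has 2 annotated starts on the minus strand of chromosome 1, the window of one start held 2 E-boxes and 3 GATA motifs and the window of the other held 3 E-boxes. The letters TTTCCC, the second part of the PTF1 site, were in no window of the factors. Of 32841 RefSeq windows of the same length, 66.2% held an E-box, 22.6% a GATA motif, 9.09% an Nr5a2 half-site and 21.95% the letters TTTCCC, so an E-box in a window is the common case. A match describes the letters only, and binding was not measured.

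The sort was checked with the markers of each gate and of other cells. Siglecf, the gene of the sorted surface protein, ranged from 5.62 to 7.52 in tuft cells, and the only non-tuft library with a value above 0 was number 2, at 1.61. Epcam, the marker of both gates, was above 0 in every library and higher in each tuft library (9.19 to 10.87) than in any non-tuft library (7.44 to 9.08). Its log2 difference of 1.72 was under the fold threshold (adjusted p = 0.0329, limma), and with ribosomal protein centring it was 2.55 and called. All 13 listed tuft cell markers were called higher in tuft cells. Non-tuft libraries 1, 2 and 5 nevertheless held tuft marker signal, with Dclk1 between 6.84 and 8.46, whereas Pou2f3, the tuft cell master regulator, had no value above 0 in non-tuft libraries 3 and 4. The summed level of the 9 listed islet markers ran from 1.75 to 14.4 on the log2 scale in non-tuft epithelium and from 0.57 to 5.38 in tuft cells, and 3 of them were called lower in tuft cells. None of 6 listed fibroblast and endothelial markers was called, but they were high in library 5 of each group, with Dcn at 8.34 in non-tuft library 5 and 6.84 in tuft library 5 and listed at 0 in the other 4 tuft libraries. Of 5 listed leukocyte markers, Ptprc, which encodes Cd45, was called higher in tuft cells (2.74 to 4.33, against 1.93 or less in the non-tuft libraries). The part of these cells in the results below was not tested, except that the factors were compared again without the libraries named.

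Of the 5 factors, 4 fell in tuft cells, namely Ptf1a, Rbpjl, Bhlha15 and Nr5a2, and Gata4 did not pass the test. The call of Nr5a2 was lost when replicate number was a block (adjusted p = 0.0597, limma), which leaves 3 factors called. A call required a fold above 4 and an adjusted p below 0.05 in limma, which 8.31% of the 12160 genes reached in either direction and 3.99% reached as a fall in tuft cells. For Ptf1a, Rbpjl and Bhlha15 every tuft library was under every non-tuft library, which held for 5.12% of all genes. The plot of the factors by library shows these 3 separated by group, Nr5a2 spread widely in both groups and Gata4 at like levels in both.

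**Figure D1:**
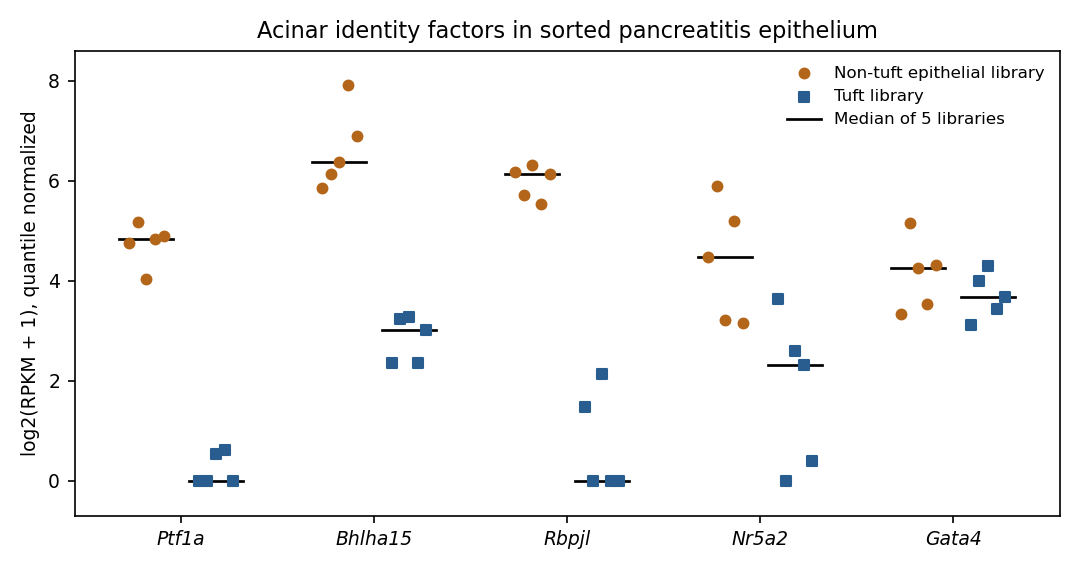
Each point is the log2(RPKM + 1) value of 1 library, circles for the 5 non-tuft epithelial libraries and squares for the 5 tuft libraries, and the bar is the median of the 5. Ptf1a, Bhlha15 and Rbpjl do not overlap between the groups, Nr5a2 overlaps because 2 non-tuft libraries lie under tuft library 1, and the Gata4 values of the tuft libraries, 3.11 to 4.28, lie almost entirely inside the non-tuft range of 3.32 to 5.16.

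Ptf1a was at 4.75, 5.17, 4.03, 4.83 and 4.89 in non-tuft libraries 1 to 5. In the tuft libraries it was listed at 0 in numbers 1, 2 and 5, and was at 0.53 in number 3 and 0.62 in number 4. The non-tuft values lay close together, and no tuft library came near them. The log2 difference, tuft minus non-tuft, was -4.51 (standard error 0.37, limma adjusted p = 1.01e-05), and the exact permutation test gave p = 0.00794, the smallest it can give with 5 libraries against 5. Over the 10 fits with 1 library left out, it stayed between -4.68 and -4.40. When the constant before log2 was 10 it shrank to -1.81, under the fold threshold (limma adjusted p = 3.58e-05).

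Rbpjl, the DNA-binding subunit that replaces Rbpj in the PTF1 complex of mature acinar cells, was at 6.17, 5.72, 6.31, 5.53 and 6.13 in non-tuft libraries 1 to 5. Tuft libraries 2, 4 and 5 had it listed at 0, and it was at 1.48 in tuft library 1 and 2.13 in tuft library 3. Rbpjl thus had the narrowest spread of the factors in the non-tuft libraries (5.97 ± 0.33, SD, n = 5 libraries), and the tuft libraries with a value were not the same pair as for Ptf1a. Its log2 difference was -5.25 (standard error 0.49, adjusted p = 2.86e-05, limma; exact permutation p = 0.00794). The range with each library left out was -5.60 to -5.07.

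Bhlha15 was the most abundant of the factors in non-tuft epithelium, at 5.85, 6.14, 6.37, 7.91 and 6.89. In the tuft libraries it fell but was above 0 in each, at 2.36, 3.23, 3.28, 2.35 and 3.01. The means were 6.63 ± 0.81 in non-tuft epithelium and 2.85 ± 0.46 in tuft cells (SD, n = 5 libraries each). The log2 difference was -3.79 (standard error 0.46, adjusted p = 1.78e-04, limma; exact permutation p = 0.00794), with a range of -3.98 to -3.47 when single libraries were left out. Alone among the 4 factors that fell, Bhlha15 was above 0 in every tuft library.

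Nr5a2 was at 4.47, 5.89, 3.22, 5.20 and 3.15 in the non-tuft libraries. In the tuft libraries it was at 3.63 in number 1, listed at 0 in number 2, and at 2.59, 2.31 and 0.39 in numbers 3, 4 and 5. Tuft library 1 was therefore above non-tuft libraries 3 and 5, and the groups overlapped. The log2 difference was -2.60 (standard error 0.75, adjusted p = 0.0399, limma; exact permutation p = 0.0238). This call was lost in 7 of the 10 fits with 1 library left out (non-tuft 1, 2 and 4, and tuft 2, 3, 4 and 5), with a log2 difference between -2.80 and -2.16 and an adjusted p between 0.0603 and 0.109. It was also lost with the replicate number as a block (adjusted p = 0.0597, limma) and without both libraries numbered 5, which carried fibroblast markers (adjusted p = 0.101).

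Gata4 was at 3.32, 5.16, 4.26, 3.53 and 4.32 in the non-tuft libraries and at 3.11, 3.99, 4.28, 3.43 and 3.68 in the tuft libraries. The groups overlapped over nearly their whole range, with means of 4.12 ± 0.73 in non-tuft epithelium and 3.70 ± 0.46 in tuft cells (SD, n = 5 libraries each). The log2 difference was -0.42 with a 95% interval from -1.37 to 0.53 (adjusted p = 0.601, limma; exact permutation p = 0.302). This interval leaves out a fall as large as the fold threshold of 4 but does not show that the levels were equal. When each library was centred on its 75 ribosomal protein genes, which moved the median log2 difference of all genes from 0.02 to 0.85, the Gata4 difference changed sign to 0.42 (adjusted p = 0.587, limma). Centring moves the difference of every gene by the same amount. The Gata4 difference relative to the median of all genes, -0.44, is therefore the same under both scalings by construction.

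**Figure D2:**
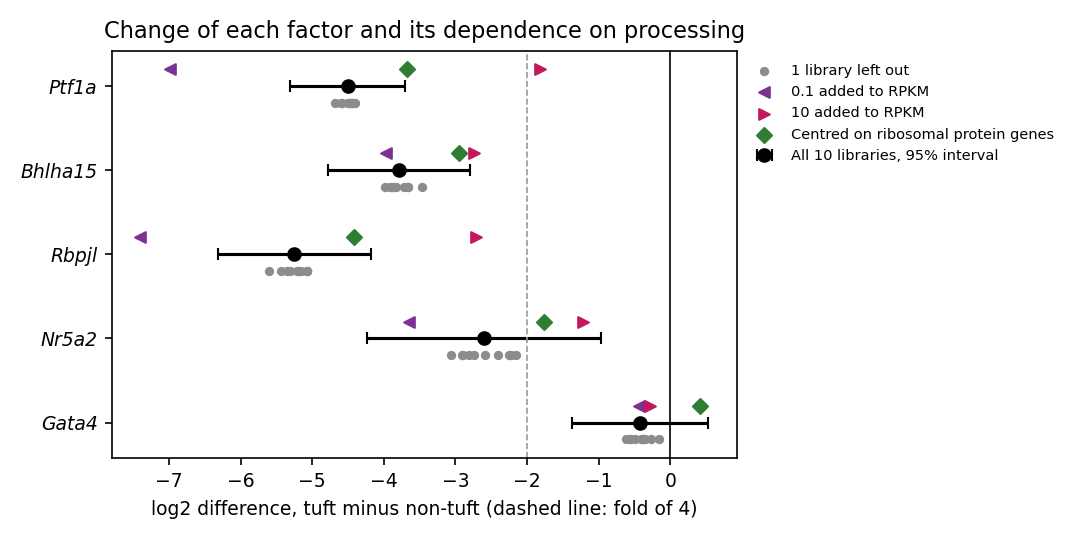
Log2 difference of each factor, tuft minus non-tuft, with its 95% interval from limma (black), the values with 1 library left out (gray), with a constant of 0.1 or 10 before log2 (triangles) and with libraries centred on ribosomal protein genes (diamonds). The dashed line marks a fold of 4. Bhlha15 and Rbpjl stay left of the dashed line in every setting shown, Ptf1a crosses it only with the constant of 10, the interval of Nr5a2 crosses the dashed line, and that of Gata4, -1.37 to 0.53, includes 0.

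In these bulk libraries, fewer cells that express a factor and less of its RNA per cell cannot be told apart. Ptf1a, Rbpjl and Bhlha15 were still called lower in tuft cells without both libraries numbered 5, where fibroblast markers were highest. They were also called without non-tuft libraries 1, 2 and 5, which held the most tuft marker signal, though this leaves few non-tuft libraries.

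Whether the factors fell by different amounts was tested for all 10 pairs, by comparing the difference between 2 factors within each library across the groups. Ptf1a, Bhlha15 and Rbpjl each fell by more than Gata4 changed, by 4.09, 3.37 and 4.83 on the log2 scale, and for each pair the groups separated as far as the libraries allow (exact permutation p = 0.00794, adjusted p = 0.0265 over the 10 pairs). Rbpjl also fell by more than Nr5a2, by 2.64 (exact permutation p = 0.0159, adjusted p = 0.0397). With 1 library left out, each of the 3 pairs with Gata4 lost its call in 7 of 10 cases (adjusted p = 0.0529, exact permutation test). Rbpjl against Nr5a2 lost it in 8 of 10 (adjusted p of 0.0635 to 0.0794, exact permutation test). With fewer libraries the smallest p of this test is larger, and 0.0529 is its adjusted value when only 3 of the 10 pairs reach it. The losses with Gata4 thus do not show a smaller difference. It stayed at -4.30 to -3.88 for Ptf1a, -3.75 to -2.90 for Bhlha15 and -5.17 to -4.58 for Rbpjl. The other 6 pairs did not pass, among them Nr5a2 against Gata4 (a log2 difference of changes of -2.18, exact permutation p = 0.0476, adjusted p = 0.0794). Ptf1a against Bhlha15 (-0.72, adjusted p = 0.218, exact permutation test) and Ptf1a against Rbpjl (0.74, adjusted p = 0.22, exact permutation test) did not pass either, and on this scale Ptf1a cannot fall by more than its non-tuft mean of 4.73.

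Because RPKM is scaled to transcript length, the levels of the factors can be set beside each other. In non-tuft epithelium the order of the mean log2 levels was Bhlha15, Rbpjl, Ptf1a, Nr5a2 and Gata4, from 6.63 to 4.12. Bhlha15 was above Rbpjl in 4 of 5 libraries, by 0.66 ± 1.04 (SD, n = 5 libraries), so these neighbors did not differ beyond their spread. Rbpjl was above Ptf1a in 5 of 5 libraries, by 1.24 ± 0.69 (SD, n = 5 libraries). Ptf1a, Nr5a2 and Gata4 were not separated, as each was above the next in 3 of 5 libraries. In tuft cells the order was Gata4, Bhlha15, Nr5a2, Rbpjl and Ptf1a. Gata4, the lowest factor by mean in non-tuft epithelium, was the highest in tuft cells, above Bhlha15 in 5 of 5 libraries by 0.85 ± 0.18 (SD, n = 5 libraries). The lower neighbors in tuft cells were not separated, since Nr5a2, Rbpjl and Ptf1a were listed at 0 in 1, 3 and 3 tuft libraries. Ranked by mean level among all listed genes, Bhlha15 was above 95.7% of genes in non-tuft epithelium and above 55.9% in tuft cells, Ptf1a above 84.4% in non-tuft epithelium, and Gata4 above 77.8% and 69.7%.

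The genes of acinar cell products fell widely in tuft cells, and whether the factors control them here was not tested. Of 33 listed digestive enzyme and granule genes, 27 met the call for a fall and 0 for a rise, beside 3.99% and 4.32% of all genes. The log2 differences of all 33 were negative, from -7.20 to -2.37, with a median of -4.61 beside 0.02 for all genes. The falls with the smallest p were those of Gp2, the major membrane protein of zymogen granules (log2 difference -5.21), Erp27 of the endoplasmic reticulum (-7.20), Cuzd1, a zymogen granule membrane protein (-6.28), and Amy1, an amylase (-6.01). Clps, the cofactor of pancreatic lipase, and Ctrb1, a chymotrypsinogen, were the most abundant genes of the list and did not pass (log2 differences -2.37 and -2.49, adjusted p = 0.0988 and 0.118, limma). In every non-tuft library both stood at 15.21 or 15.65, adjacent top ranks of the quantile normalized scale, so their differences may be compressed. Without tuft library 4, in which Ctrb1 stood at 15.65, the fall of Ctrb1 passed (log2 difference -3.20, adjusted p = 0.0399, limma). Amylase, trypsinogen and elastase genes are close copies whose reads the quantification could have divided, so their single values are uncertain. Without non-tuft libraries 1, 2 and 5, which leaves 2 non-tuft libraries, 8 of the 33 enzyme and granule genes were called lower instead of 27. Over all lists other than the factors and the cell type markers, 13 members were called lower instead of 35.

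The enzyme genes and the factors were also compared within each tuft library. Expressed as a percentage of the mean RPKM in the non-tuft libraries, the median enzyme gene was at 10.2% in tuft library 1, 7.19% in number 2, 2.17% in number 3, 20.0% in number 4 and 0.50% in number 5. Enzyme RNA was thus highest in tuft library 4 and lowest in tuft library 5. Bhlha15 ranged less widely, at 3.65%, 7.42%, 7.72%, 3.61% and 6.25%. In tuft library 5 Bhlha15 was above all 33 enzyme genes by this measure, and in tuft library 4 it was below 30 of them. Ptf1a was at 1.67% in tuft library 3 and 2.01% in tuft library 4 and at 0 in the others. Rbpjl was at 2.85% in tuft library 1 and 5.37% in tuft library 3, and it was listed at 0 in tuft library 4, where enzyme RNA was highest. Nr5a2 ranged from 0 in tuft library 2 to 43.1% in tuft library 1. Gata4 was at 41.9%, 81.3%, 101%, 53.5% and 64.6%, above the median enzyme gene in each tuft library. With 5 tuft libraries no correlation across them is given.

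**Figure D3:**
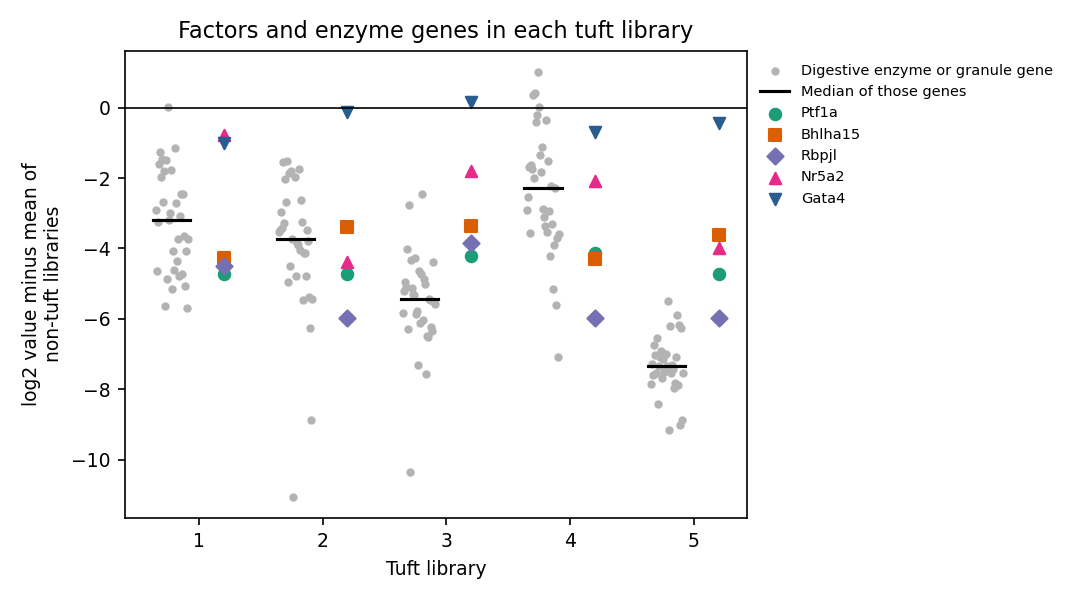
For each tuft library, the log2 value of every digestive enzyme or granule gene (gray, with the median as a bar) and of the 5 factors (colored symbols), minus the mean of that gene in the non-tuft libraries. The enzyme median runs from -2.27 in tuft library 4 to -7.35 in tuft library 5, while Bhlha15 stays between -4.29 and -3.35 and the highest Gata4 value is 0.17. In tuft library 4 some enzyme genes lie above 0, the highest being Prss3 at 1.02, and a gene listed at 0 cannot lie lower than its own non-tuft mean below the line.

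Mist1 is known for the secretory machinery that it activates. Of 8 listed target genes, 4 were called lower and 0 higher in tuft cells, beside 3.99% and 4.32% of all genes. Their median log2 difference was -1.10. With 1 library left out, 2 to 4 of them were called lower. Copz2, a subunit of the COPI vesicle coat, ranged from 5.14 to 6.16 in non-tuft epithelium and from 0 to 2.33 in tuft cells, with a log2 difference of -4.60 (standard error 0.47, adjusted p = 5.35e-05, limma). Atp2c2, the secretory pathway calcium pump, was between 2.25 and 4.73 in non-tuft epithelium and at most 0.37 in tuft cells (log2 difference -3.46, adjusted p = 8.12e-04, limma). Rab26, a granule-associated GTPase, and Gjb1, the gap junction protein connexin 32, were also called lower (log2 differences -2.24 and -2.16, adjusted p = 0.0169 and 0.0209, limma). Rab26 was no longer called without non-tuft library 4 (log2 difference -1.78), nor was Gjb1 without non-tuft library 4 (-1.95) or tuft library 1 (-1.73) or 4 (adjusted p = 0.0536, limma). Both also lost their calls with a constant of 10 before log2, with ribosomal protein centring, and without non-tuft libraries 1, 2 and 5. Rab26 lost it as well without both libraries numbered 5 (adjusted p = 0.0811, limma), and Gjb1 with a constant of 0.1 (adjusted p = 0.0603, limma). Rab3d, another granule GTPase that Mist1 activates, was at 3.94 to 4.94 in non-tuft epithelium and 3.76 to 4.61 in tuft cells, a log2 difference of 0.02 (adjusted p = 0.983, limma). Serpini1, Ccpg1 and Mib1 were not called, with log2 differences of 1.03, 0.61 and -0.04.

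The listed targets of Nr5a2 were few. Cel, the bile salt-stimulated lipase, was between 10.60 and 11.96 in non-tuft epithelium and between 2.24 and 8.04 in tuft cells (log2 difference -5.15, adjusted p = 0.00220, limma). Cel was no longer called without non-tuft libraries 1, 2 and 5 (log2 difference -4.63, adjusted p = 0.132, limma). Nr0b2, which encodes the nuclear receptor SHP, a repressor that Nr5a2 induces and that restrains it in turn, was at 1.97, 1.89, 1.46, 3.08 and 2.32 in non-tuft libraries 1 to 5. Tuft libraries 1, 2 and 4 had it listed at 0, and it was at 0.30 and 0.02 in numbers 3 and 5, a log2 difference of -2.08 (adjusted p = 0.00356, limma). Without non-tuft library 4 its log2 difference was -1.85, under the fold threshold. It was also under the threshold with a constant of 10 before log2 (-0.44) and with ribosomal protein centring (-1.24). Scarb1, the high-density lipoprotein receptor, did not pass (log2 difference -0.30, 95% interval -1.24 to 0.64).

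Of 7 listed partners of Ptf1a and Id proteins, 1 was called lower and 0 higher, beside 3.99% and 4.32% of all genes. Their median log2 difference was -0.30. Rbpj, the widely made relative of Rbpjl, was at 2.05, 2.42, 2.17, 1.37 and 3.33 in the non-tuft libraries and at 2.61, 1.98, 2.57, 0 and 2.68 in the tuft libraries. In contrast to Rbpjl, the groups overlapped (log2 difference -0.30, 95% interval -1.52 to 0.93, adjusted p = 0.793, limma). Tcf3, Tcf4 and Tcf12, the common bHLH proteins that pair with Ptf1a and Mist1, had log2 differences of -1.11, 0.37 and 0.08, none of which passed. The called member was Id3, an inhibitor that binds the common bHLH proteins and keeps them from DNA. Id3 was between 3.76 and 5.99 in non-tuft epithelium and between 1.48 and 3.34 in tuft cells, without overlap (log2 difference -2.84, standard error 0.50, adjusted p = 0.00251, limma). Id2 was the most abundant, at 8.09 ± 0.22 in non-tuft epithelial cells and 8.27 ± 0.44 in tuft cells (SD, n = 5 libraries each).

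**Figure D4:**
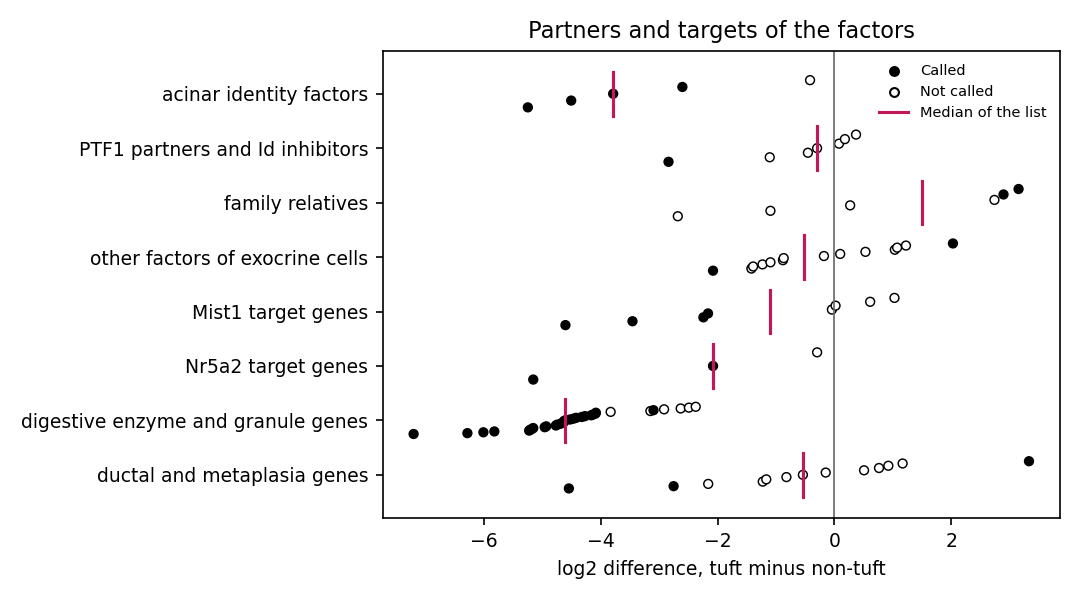
Log2 difference, tuft minus non-tuft, of each listed gene in 8 lists, filled where the gene was called and open where it was not. The lists are the factors, their partners, relatives and targets, enzyme genes, other factors of exocrine cells, and ductal and metaplasia genes. The bar is the median of each list. The enzyme genes lie between -7.20 and -2.37, while the other factors of exocrine cells lie on both sides of 0.

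Of 6 listed relatives of the factors, 0 were called lower in tuft cells, where 3.99% of all genes were, so this count says little about the relatives. Neurod1 had a log2 difference of -2.68 and did not pass (adjusted p = 0.0658, limma). With the replicate block, without non-tuft library 4, or without tuft library 1, 1 relative was called lower. Ascl2, a bHLH factor of other lineages, rose by a log2 difference of 3.15 (adjusted p = 0.0181, limma). Ascl2 was no longer called without tuft library 3 (adjusted p = 0.0534, limma). Gata6, the closest partner of Gata4 in the pancreas, was at 5.75, 5.31, 2.27, 4.58 and 2.71 in the non-tuft libraries and at 3.84, 3.58, 2.61, 3.36 and 1.74 in the tuft libraries. Its log2 difference of -1.10 did not pass (95% interval -2.60 to 0.41, adjusted p = 0.366, limma). Gata5 was at 0, 0.17, 5.84, 3.67 and 3.02 in non-tuft epithelium, ranged from 4.40 to 5.95 in tuft cells, and did not pass (log2 difference 2.74, adjusted p = 0.0833, limma), but it passed without non-tuft library 3 (adjusted p = 0.0146, limma). It passed as well when libraries were centred on ribosomal protein genes (adjusted p = 0.0277, limma).

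Of 14 listed other factors that act beside these in exocrine cells, 1 was called lower, which was Nr0b2, and 1 higher. Over all genes the shares were 3.99% and 4.32%. The median log2 difference of these factors was -0.52. For Creb3l1 every tuft library was under every non-tuft library, but its fall was under the fold threshold (log2 difference -1.39, adjusted p = 0.0437, limma). With a fold threshold of 2, 2 of these factors were called lower. Hnf4a, a nuclear receptor of endodermal epithelia, was at 4.01 ± 1.42 in non-tuft epithelial cells and 6.04 ± 0.49 in tuft cells (SD, n = 5 libraries each). Its call was marginal (log2 difference 2.03, adjusted p = 0.0496, limma) and was lost without any single library other than non-tuft library 1 (adjusted p of 0.0650 to 0.113, limma). Xbp1, which drives the secretory apparatus of the endoplasmic reticulum, was at 6.89 ± 0.52 in non-tuft epithelial cells and 6.99 ± 0.72 in tuft cells (SD, n = 5 libraries each), with a 95% interval of the log2 difference from -0.87 to 1.06. Foxa2 and Prox1, also of the pancreatic lineage, had log2 differences of -1.42 and -0.87 and did not pass.

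Of 13 listed ductal and metaplasia genes, 2 were called lower and 1 higher in tuft cells, beside 3.99% and 4.32% of all genes. Sox9, the ductal factor that rises when acinar identity is lost, was between 6.50 and 7.70 in non-tuft epithelium and between 7.45 and 8.12 in tuft cells, and did not pass (log2 difference 0.51, 95% interval -0.31 to 1.32). Spp1, a secreted ductal product, and Hes1, a Notch target, fell (log2 differences -4.55 and -2.75, adjusted p = 0.00413 and 0.00617, limma). Spp1 was no longer called without non-tuft libraries 1, 2 and 5 (adjusted p = 0.0778, limma). Hes1 was no longer called without both libraries numbered 5 (adjusted p = 0.0533, limma). By its fold, Hes1 also lost its call with a constant of 10 (log2 difference -1.58) and with ribosomal protein centring (-1.92). Klf4, a zinc finger factor of differentiating epithelia, rose, with a log2 difference of 3.33 (adjusted p = 0.00804, limma), but the groups overlapped, with 4.32 in non-tuft library 4 and 4.13 in tuft library 3. The call of Klf4 was lost without non-tuft libraries 1, 2 and 5 (adjusted p = 0.216, limma) and, by its fold, with a constant of 10 (log2 difference 1.63).

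The genes whose profiles were most like each factor were found by the root mean square (RMS) difference over the 10 libraries between log2 profiles centred on their own means. This measure uses the difference between the groups and is given as a description. The nearest to Ptf1a was Cckar, which encodes the cholecystokinin receptor on which caerulein acts, at an RMS difference of 0.32. Cckar ranged from 6.87 to 7.81 in non-tuft epithelium and from 1.91 to 3.26 in tuft cells. Spc24, a kinetochore gene, and Amy2a2, a copy of amylase, came next to Ptf1a at 0.43 and 0.50. The nearest to Bhlha15 were Lama4, Tmem97 and Ccna2, at 0.41, 0.51 and 0.55, of which Ccna2 is the cyclin of S phase and was between 3.33 and 4.52 in non-tuft epithelium and at most 0.80 in tuft cells. The nearest to Rbpjl were 1810053B23Rik, Copz2 and Cckar, at 0.56, 0.64 and 0.75.

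Nr5a2 had Dock1, 2010204K13Rik and Cadm1 as its nearest genes, at 0.68, 0.72 and 0.80, all of which varied among the tuft libraries and were listed at 0 in tuft library 2, as Nr5a2 was. The nearest to Gata4 were Bfar, Acad11 and Kdsr, at 0.23 to 0.28, none of which was called. Among all other listed genes, ordered by likeness to Ptf1a, Bhlha15 ranked 30, Rbpjl ranked 46, Nr5a2 ranked 386 and Gata4 ranked 2891.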

How the data were processed

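RNA of 100 sorted cells per library was profiled by the authors with Smart-Seq2. Single-end reads of 50 bp were aligned by the authors to mm9 (HISAT2) and converted to RPKM per gene (StringTie and Ballgown). Genes whose RPKM varied by less than 1 (variance) were dropped, and the rest were log2 transformed and quantile normalized. The deposited table holds these log2 values, 1 column per library. Its 3 columns of the authors' own comparison (fold change, p-value and false discovery rate) were not used. Groups and replicate numbers came from the sample titles. The protocol describes replicates as individual mice, and both groups came from the same 5.

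The groups were compared for every listed gene with limma 3.58.1 (lmFit, then eBayes, at their defaults and without covariates; R 4.3.3), and p-values were adjusted by Benjamini-Hochberg. A call needed a fold above 4 and an adjusted p below 0.05. Single values were compared with scipy 1.17.1 by an exact permutation test, two-sided, over the 252 possible assignments of libraries to groups, and the 10 pairs of factors were adjusted together. Fold changes on the log2(RPKM + 1) scale understate the change of low genes. The fit was tested on simulated data. The depth is unknown, since the table holds no counts, and no counting interval is given.

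Gene positions came from an mm9 annotation, and promoters from RefSeq (GRCm38.p6), the 250 bases before each start. The rule for named genes took all factors, Siglecf, Epcam and Pou2f3, up to 4 called genes of smallest p and 2 genes of highest mean level per list, and the 3 genes most like each factor. Genes named outside this rule were picked with their values in view. A gene that the rule selects is not reported here. Besides the factors, 11 lists were used, and 113 of their 143 symbols were listed. The factors and lists were chosen with earlier results of these data known, so they are not independent support. Results were recomputed with replicate number as a block, other constants before log2, a filter on low values, ribosomal protein centring, other variance and fold settings, a floor of 0, and each library left out. Leaving out both libraries numbered 5, or non-tuft libraries 1, 2 and 5, was added after the data were seen.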

Additional observations from a re-analysis of the deposited data

Results flagged for a closer look

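No group of the factors themselves held a library that stood far from the rest, in 10 groups looked at. Among all named genes, 20 of 121 groups of 5 libraries held such a library, judged by Dixon's criterion. For normally distributed values it marks about 1 group in 20 by chance. Where 4 of 5 libraries are at the lowest value, as for Siglecf in non-tuft epithelium or Rab26 in tuft cells, a single higher value tends to be marked. The count therefore cannot be compared with that rate. The values that stood apart are given here without an explanation, and the cause was not tested.

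Of the partners, relatives and targets of the factors, Ascl2 stood low in non-tuft library 2 at 0.17 and Scarb1 high in non-tuft library 3 at 4.13. Nr0b2 and Rab26 were above 0 in tuft library 3, at 0.30 and 0.53. Among enzyme genes, Cel stood low in tuft library 5 at 2.24, while Clps at 15.21 and Ctrb1 at 15.65 stood apart in non-tuft library 5, where these adjacent top ranks of the quantile normalized scale were exchanged.

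Of the genes most like a factor, Lama4 was at 0.45 in tuft library 5, Ccna2 at 0.80 in tuft library 3, Dock1 at 2.31 in non-tuft library 5 and Cadm1 at 4.97 in non-tuft library 4. Of the markers of other cells, Siglecf was at 1.61 in non-tuft library 2 and Gfi1b at 2.61 in non-tuft library 5, Chgb at 3.02 and Chga at 2.87 in tuft library 1, and Cd79a at 5.23 in non-tuft library 5. Dcn was at 8.34 and Col3a1 at 7.26 in non-tuft library 5, and they were at 6.84 and 5.10 in tuft library 5.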

How the results depend on the processing

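Rbpjl and Bhlha15 kept their direction and call in all 21 alternatives run, and Ptf1a in 20, the exception being a constant of 10 before log2 (-1.81). A lower fold threshold, or none, could not remove a call made at a fold of 4. A floor of 0 left the differences of the factors unchanged. Those alternatives are therefore no check of the factors, although they are among the 21. Nr5a2 lost its call in 13 of 21, with log2 differences of -3.64 and -1.22 for constants of 0.1 and 10, -1.77 with ribosomal protein centring, -2.60 with the replicate block, -2.56 without both libraries numbered 5, -2.42 without non-tuft libraries 1, 2 and 5, and in 7 of the 10 fits with 1 library left out. Over all 10 of those fits, lost or kept, its log2 difference was -3.06 to -2.16. Gata4 changed sign only with ribosomal protein centring (0.42).

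The count of called genes, 1010, fell to 278 with a constant of 10, rose to 1588 with ribosomal protein centring, where 86.1% of calls were higher in tuft cells against 51.98% before, and was 841 to 1010 with 1 library left out. List members called lower went from 35 to 13 without non-tuft libraries 1, 2 and 5. Those called higher went from 4 to 1 with either other constant and without both libraries numbered 5 or non-tuft libraries 1, 2 and 5, and were 1 to 4 with 1 library left out.

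Between factors, a constant of 0.1 made Ptf1a against Bhlha15 (-3.01), Ptf1a against Nr5a2 (-3.34), Bhlha15 against Rbpjl (3.42) and Nr5a2 against Gata4 (-3.20) pass. A constant of 10 turned Ptf1a against Bhlha15 to 0.92 and Bhlha15 against Rbpjl to -0.026, and made Ptf1a against Rbpjl pass (0.90). With 1 library left out, Bhlha15 against Rbpjl was 1.18 to 1.89 and passed without non-tuft library 4. The pairs that passed were then -4.30 to -3.88 (Ptf1a against Gata4), -3.75 to -2.90 (Bhlha15 against Gata4), -5.17 to -4.58 (Rbpjl against Gata4) and -3.08 to -2.27 (Rbpjl against Nr5a2), and they lost their calls in 7, 7, 7 and 8 of 10 such fits, which have fewer libraries.

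Both groups came from the same 5 mice, but the sources do not say that equal numbers mark 1 mouse. Deviations of same-numbered libraries correlated at 0.15, 0.092, 0.12, 0.079 and 0.24 for numbers 1 to 5, so 3 of 5 were over 0.1. Tuft libraries 1, 2, 4 and 5 correlated best with the non-tuft library of their own number and tuft library 3 with number 5 (0.22). This is a hint that the numbers pair the libraries, not part of the stated design, and the block stayed an alternative. With the replicate number as a block 1009 genes were called, 961 of them among the 1010, and of the factors only Nr5a2 lost its call (limma adjusted p = 0.0597). The causes of these changes were not tested. The depth is unknown, so a factor listed at 0 sets no limit on its RNA.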
